A study of Mus musculus with 4 samples.

Results

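The cytosolic heat shock chaperones were followed here as 10 genes, chosen by symbol: Hspa1a, Hspa1b, Hspa8, Hsph1, Hsp90aa1, Hsp90ab1, Dnajb1, Hspb1, Bag3 and Hsf1. Each matched 1 of the 55401 gene identifiers in the deposited count table, and all 10 were among the 15131 genes with enough counts to test. The study sequenced poly(A) RNA from mouse tissue lying beside pancreatic tumours, and asked which pathways act downstream of CRFR1, a receptor for the stress peptide CRF. The CRFR1-KO group held 2 libraries from mice with a conditional knockout of CRFR1, and the WT group held 2 libraries from wild-type mice. Both groups carried pancreatic ductal adenocarcinoma, with Panc02, a mouse pancreatic cancer line, as the labelled cell line. The promoter that drove the deletion, the strain and the age were not given in the sources used here. Nothing states that a genotype's libraries are from different mice, so the p-values speak to library spread, which may be technical.

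Total counts ran from 63495457 to 71203640 per library, and genes of digestive enzymes and other acinar proteins held 82.9% to 84.3% of the counts in CRFR1-KO and 79.7% to 83.6% in WT. Crhr1, which encodes CRFR1, had a count of 0 in all 4 libraries, so it gives no check of the genotype labels. Levels are given in CPM, the counts of a gene relative to the scaled library size. If each count stands for a single read, 3 counts are the limit that a count of 0 allows. These correspond to 0.048 CPM in CRFR1-KO 1, 0.0458 CPM in CRFR1-KO 2, 0.0363 CPM in WT 1 and 0.0458 CPM in WT 2. Expression was otherwise that of exocrine pancreas with little stroma: the 20 fibroblast and matrix genes summed to 233 and 276 CPM in CRFR1-KO, against 673 and 351 CPM in WT, and WT 1 was the highest of the 4. The 17 islet genes summed to 261 and 328 CPM in CRFR1-KO, against 48.8 and 297 CPM in WT, and WT 1 was the lowest of the 4. The 20 macrophage and leukocyte genes summed to 72.2 and 102 CPM in CRFR1-KO, against 144 and 116 CPM in WT, and 5 of them, among them S100a8 and Ly6g, were at 0 in every library. Of 13 mast cell genes 8, among them Cma1 and Tpsb2, were at 0 in every library. In bulk tissue, fewer cells of a type and less RNA per cell cannot be told apart. The part of these differences in the values below was not tested.

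Heat shock chaperones keep other proteins folded. HSP70 proteins bind exposed stretches of unfolded chains in cycles of ATP hydrolysis, J-domain proteins such as DNAJB1 start the cycle, and nucleotide exchange factors such as HSPH1 and BAG3 end it by releasing ADP. HSP90 proteins act later, on nearly folded clients such as kinases and steroid receptors, and small heat shock proteins such as HSPB1 hold unfolded chains without ATP. HSF1 is the transcription factor that switches on the inducible members under stress, by binding heat shock elements, which are inverted repeats of the bases GAA. In rats, prior induction of HSP70 lessens experimental pancreatitis.

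Hspa1a and Hspa1b encode the stress-inducible HSP70 and lie next to each other on the minus strand of chromosome 17. The 250 bases before the start of each gene are shown because they are nearly identical between the copies. The stretches are chr17:34972157-34972406 for Hspa1a and chr17:34959239-34959488 for Hspa1b (minus strand, RefSeq on GRCm38.p6). Capitals mark paired GAA and TTC units, a match in letters to the repeats of heat shock elements.
Hspa1a: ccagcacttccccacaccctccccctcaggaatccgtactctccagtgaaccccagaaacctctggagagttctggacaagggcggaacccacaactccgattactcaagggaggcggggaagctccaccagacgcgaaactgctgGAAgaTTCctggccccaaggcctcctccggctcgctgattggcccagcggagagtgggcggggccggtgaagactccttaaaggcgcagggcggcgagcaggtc
Hspa1b: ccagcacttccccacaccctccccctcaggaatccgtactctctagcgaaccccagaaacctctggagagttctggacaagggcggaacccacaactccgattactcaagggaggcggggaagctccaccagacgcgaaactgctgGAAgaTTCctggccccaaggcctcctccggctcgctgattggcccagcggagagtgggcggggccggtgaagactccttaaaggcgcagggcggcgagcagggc

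These 250 bases differed at 3 positions, written with the Hspa1a base first and counted from the 5′ end of the printed stretch: C44T, T47C and T249G. None of the 3 lay in the paired units, which began 104 bases before the gene start in both copies. The likeness held in the coding sequences, but only in part over the whole transcripts. The coding sequences were 99.4% identical, the proteins differed by 1 residue, and 47.1% of all 100-base windows of the Hspa1a transcript occurred unchanged in Hspa1b (49.9% the other way, GENCODE M21). How the authors' counting shared out reads between the copies, or whether it dropped shared reads, is not stated. The single-copy values below are therefore uncertain. Their sum is given too, but it would be too low as well if shared reads were dropped. By the same measure no 100-base window was shared between Hspa8 and either copy, or between Hsp90aa1 and Hsp90ab1, although the protein of Hsp90aa1 was 85.7% identical to that of Hsp90ab1.

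Hspb1 and Hsph1 are shown as 2 of the 3 members with both CRFR1-KO libraries above both WT libraries, against 33.5% of all tested genes whose genotypes did not overlap in either direction. On library totals none of the 3 was separated. The other of the 3, Dnajb1, held no paired units and is not shown. Hspa1a and Hspa1b, which held a pair, overlapped between genotypes. A link between the units and the levels was not tested. The stretches are chr5:135887669-135887918 for Hspb1 (plus strand) and chr5:149636337-149636586 for Hsph1 (minus strand, the more upstream of its 2 annotated starts), again in RefSeq on GRCm38.p6 with paired units in capitals.
Hspb1: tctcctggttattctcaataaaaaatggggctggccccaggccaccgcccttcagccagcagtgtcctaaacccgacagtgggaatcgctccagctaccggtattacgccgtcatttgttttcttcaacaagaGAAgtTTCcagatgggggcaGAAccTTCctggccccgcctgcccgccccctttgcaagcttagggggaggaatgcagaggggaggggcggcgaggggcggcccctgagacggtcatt
Hsph1: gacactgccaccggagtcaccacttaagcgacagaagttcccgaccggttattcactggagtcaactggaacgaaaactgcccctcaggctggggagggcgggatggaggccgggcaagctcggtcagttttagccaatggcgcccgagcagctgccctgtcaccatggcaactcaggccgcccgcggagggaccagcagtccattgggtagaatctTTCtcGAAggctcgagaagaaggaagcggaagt

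The search looked for GAANNTTC and TTCNNGAA, which read the same on both strands and overlap wherever 3 units follow each other, in windows from 250 bases before to 50 bases after each start. Windows were found for 6 members. Hspa8, Hsp90aa1, Hsp90ab1 and Hsf1 had no entry. Of the 6, 5 held at least 2 units in a row, against 17.0% of 27025 genes with a window. Hspa1a and Hspa1b, with windows 98.7% identical, held the same pair and are not separate finds. The only pair of Bag3 began 42 bases after the start. Hspb1 held 2 such pairs, beginning 117 and 97 bases before the start, and Hsph1 held a run of 3 units beginning 36 bases after the start shown, a length found in 0.662% of genes. Neither Dnajb1 window held a pair. A match describes letters and does not show that HSF1 was bound.

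Scaled to transcript length, the constitutive chaperones dominated in both genotypes. Hspa8, the constitutive HSP70, and Hsp90ab1, the constitutive HSP90, stood at 48.3 ± 10.1 and 41.9 ± 3.0 CPM per kb of the longest coding transcript (SD, n = 4 libraries). Their ranges over the libraries overlapped. Hsp90aa1, the inducible HSP90, followed at 6.94 ± 0.88 CPM per kb and Hspb1 at 6.55 ± 0.89 CPM per kb, again with overlapping ranges. Hsf1 (2.55 ± 0.40) and Bag3 (2.52 ± 0.59) formed the next overlapping pair, then Hsph1 (1.19 ± 0.33) and Dnajb1 (1.12 ± 0.17), all in CPM per kb. Hspa1b and Hspa1a were lowest, at 0.173 ± 0.051 and 0.156 ± 0.077 CPM per kb, and overlapped with each other. No range overlapped between one such pair and the next. Over the union of all annotated exons the pairs at the top and bottom held the same genes, with Hsp90ab1 above Hspa8, whereas Hsf1, at 0.756 CPM per kb, lay below Dnajb1, at 1.04.

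**Figure D1:**
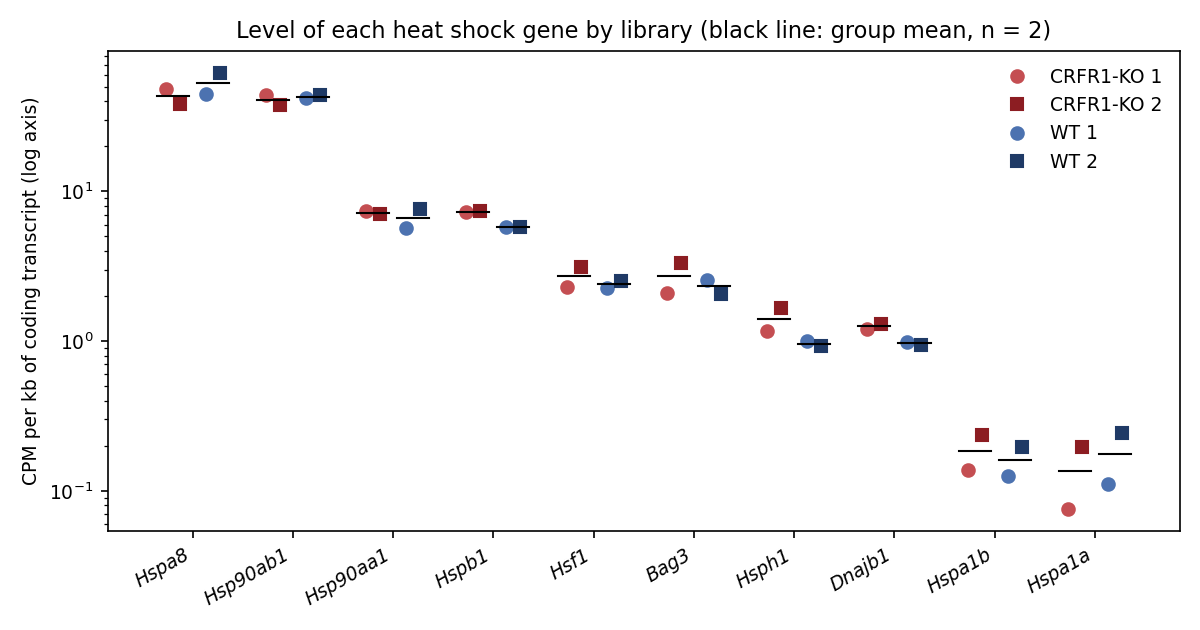
The level of each heat shock gene in CPM per kb of its longest coding transcript (log axis), with 1 point per library and a black line at the mean of each genotype (n = 2). Hspa8 and Hsp90ab1 lie between 37.7 and 62.2 CPM per kb, and Hspa1a and Hspa1b between 0.0755 and 0.242.

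As counted, the inducible HSP70 copies were thus a small share of the cytosolic HSP70 pool. Hspa1a and Hspa1b together made up 0.439% and 1.11% of the summed per-kb level of Hspa1a, Hspa1b and Hspa8 in CRFR1-KO, against 0.525% and 0.699% in WT. CRFR1-KO 2 had the highest share, and the groups overlapped. Among the HSP90 genes, Hsp90aa1 made up 14.2% and 15.8% of the per-kb level of Hsp90aa1 and Hsp90ab1 in CRFR1-KO, against 12.0% and 14.9% in WT, and the groups overlapped here as well. All 10 genes together took 0.0247% and 0.0251% of the counts in CRFR1-KO, against 0.0301% and 0.0283% in WT. These shares are of library totals without scaling, where 66.6% of all tested genes had a log2 fold change below 0. Hspa8 and Hsp90ab1 held most of the 10 genes' counts, with 82.0% and 76.8% in CRFR1-KO, against 83.2% and 84.2% in WT.

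None of the 10 genes passed the test of CRFR1-KO against WT. In edgeR's quasi-likelihood test, 0 of 10 had an adjusted p under 0.05, against 0.0264% of all tested genes (4 of 15131). At an unadjusted p under 0.05 there were again 0 of 10, against 4.86% of all tested genes. DESeq2 and limma-voom also called 0 of the 10, against 0.377% and 0.0% of all tested genes. The edgeR adjusted p was 1 for every member. Of the 10 log2 fold changes, 7 were above 0 and 3 below, against 50.8% of all tested genes below 0. The median was 0.196 over the members and -0.00633 over all tested genes. The members' median was 0.00289 without CRFR1-KO 2, with 5 of 10 below 0, and 0.0185 without WT 1, also with 5 of 10 below 0. It was 0.370 without CRFR1-KO 1 and 0.324 without WT 2.

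**Figure D2:**
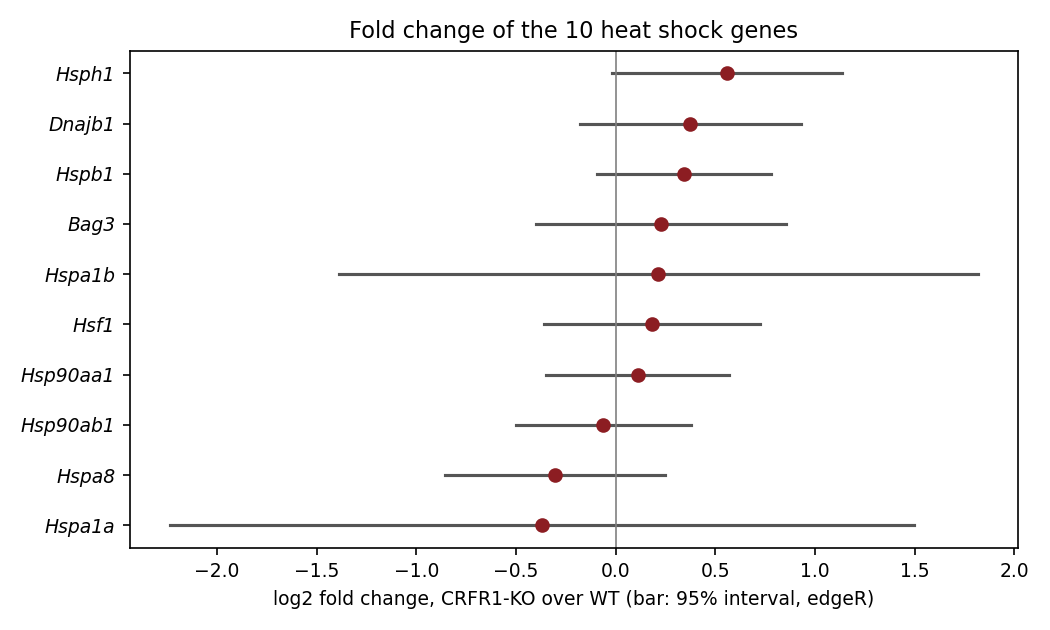
The log2 fold change of CRFR1-KO over WT for each heat shock gene, with its 95% interval from the edgeR test as a bar. Every interval includes 0, and those of Hspa1a (-2.24 to 1.498) and Hspa1b (-1.39 to 1.82) are the widest.

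Hsph1 (ENSMUSG00000029657; chromosome 5, 149614287 to 149636376, GRCm38 in GENCODE M21, as are the positions that follow), the HSP110 nucleotide exchange factor, had the largest positive fold change of the 10. It stood at 4.46 and 6.28 CPM in CRFR1-KO, against 3.80 and 3.50 CPM in WT. Both CRFR1-KO libraries lay above both WT libraries, and CRFR1-KO 2 stood well above CRFR1-KO 1. The log2 fold change was 0.56 (SE 0.25, 95% interval -0.02 to 1.14, edgeR adjusted p = 1), 0.30 without CRFR1-KO 2 and 0.78 without CRFR1-KO 1.

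Dnajb1 (ENSMUSG00000005483; chromosome 8, 83608193 to 83612653), the J-domain partner of HSP70, stood at 3.63 and 3.91 CPM in CRFR1-KO, against 2.98 and 2.84 CPM in WT. The libraries of each genotype lay close together and the genotypes did not overlap. Its log2 fold change was 0.37 (SE 0.24, 95% interval -0.18 to 0.93). Hspb1 (ENSMUSG00000004951; chromosome 5, 135887919 to 135889563), the small heat shock protein HSP27 in human naming, was the most even within genotypes, at 6.78 and 6.84 CPM in CRFR1-KO, against 5.38 and 5.36 CPM in WT. The libraries of a genotype differed by 0.0126 log2 units in CRFR1-KO and 0.0054 in WT, and the genotypes did not overlap. Its log2 fold change was 0.34 (SE 0.18, 95% interval -0.09 to 0.78, edgeR unadjusted p = 0.105). With 2 libraries per genotype, such small differences are a poor measure of the gene's variability. Hspb1 is abundant in muscle. The 19 smooth and striated muscle genes listed summed to 10.1 and 18.0 CPM in CRFR1-KO, against 14.4 and 20.1 CPM in WT. Of these genes 6, among them Acta1 and Myh4, were at 0 in every library. The part of muscle in the Hspb1 values was not tested.

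Hsph1, Dnajb1 and Hspb1 were the 3 of 10 members whose genotypes did not overlap, against 33.5% of all tested genes. The count was the same with DESeq2 size factors and with upper quartile scaling. On library totals the picture differed: all 3 overlapped, with Hspb1 at 6.05 and 7.06 CPM in CRFR1-KO against 6.36 and 4.93 CPM in WT. On that scale Hspa8 and Hsp90ab1 were instead the 2 members without overlap, both lower in CRFR1-KO, against 28.0% of all tested genes. Library totals moved the median log2 fold change of all tested genes from -0.00633 to -0.133, and the members' median to 0.0892. The 3 genes kept log2 fold changes above 0 there, at 0.44 for Hsph1, 0.25 for Dnajb1 and 0.21 for Hspb1.

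Bag3 (ENSMUSG00000030847; chromosome 7, 128523616 to 128546981), which couples HSP70 to selective autophagy of damaged proteins, varied more within genotypes than between them. It stood at 5.38 and 8.54 CPM in CRFR1-KO, against 6.61 and 5.29 CPM in WT, with CRFR1-KO 2 highest and WT 1 next. The log2 fold change was 0.23 (SE 0.27, 95% interval -0.40 to 0.85), and -0.14 without CRFR1-KO 2. Hsf1 (ENSMUSG00000022556; chromosome 15, 76477422 to 76501913) was likewise highest in CRFR1-KO 2, at 4.82 and 6.58 CPM in CRFR1-KO against 4.79 and 5.27 CPM in WT, and overlapped between genotypes. Its log2 fold change was 0.18 (SE 0.23, 95% interval -0.36 to 0.72), and -0.05 without CRFR1-KO 2. The RNA level of Hsf1 does not measure the activity of its protein, which is controlled after translation.

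The inducible HSP70 copies had few counts and varied widely within genotypes. Hspa1a (ENSMUSG00000091971; chromosome 17, 34969190 to 34972156) had 14 and 38 counts in CRFR1-KO and 27 and 47 in WT, or 0.224 and 0.581 CPM against 0.327 and 0.718 CPM. Hspa1b (ENSMUSG00000090877; chromosome 17, 34956436 to 34959238) had 24 and 43 counts in CRFR1-KO and 29 and 36 in WT, or 0.384 and 0.657 CPM against 0.351 and 0.550 CPM. The predicted gene Gm20481, which shares 564 exon bases with Hspa1a on the opposite strand, had 0 counts in every library. Within each genotype the second library was above the first for both copies, and the genotypes overlapped. Summed over the copies there were 38 and 81 counts in CRFR1-KO and 56 and 83 in WT, or 0.608 and 1.24 CPM against 0.677 and 1.27 CPM. The log2 fold change of the sum was -0.07 (SE 0.56, 95% interval -1.39 to 1.25, edgeR adjusted p = 1), so a difference inside that interval could not be told from the spread between these libraries. The sum was 0.35 without CRFR1-KO 1 and 0.45 without WT 2, against -0.67 without CRFR1-KO 2 and -0.46 without WT 1, all on the log2 scale. A count of 4 was more frequent (913 genes in WT 1) than a count of 3 (349 genes) or 5 (242 genes), so it is unclear what 1 deposited count represents in reads, and low counts may carry less information than their size.

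The abundant members were measured with narrower intervals. Hspa8 (ENSMUSG00000015656; chromosome 9, 40800984 to 40810087) stood at 115 and 91.7 CPM in CRFR1-KO, against 107 and 149 CPM in WT. WT 2 was highest, CRFR1-KO 2 lowest, and the remaining libraries lay between them in overlapping order. The log2 fold change was -0.30 (SE 0.23, 95% interval -0.86 to 0.25), and -0.04 without WT 2. Hsp90ab1 (ENSMUSG00000023944; chromosome 17, 45567775 to 45573271) was the closest to 0 of the 10, at 112 and 95.0 CPM in CRFR1-KO and 105 and 110 CPM in WT, with a log2 fold change of -0.06 (SE 0.19, 95% interval -0.50 to 0.38). Hsp90aa1 (ENSMUSG00000021270; chromosome 12, 110690605 to 110702728) stood at 24.1 and 23.1 CPM in CRFR1-KO and 18.6 and 25.2 CPM in WT, with WT 1 lowest and a log2 fold change of 0.11 (SE 0.19, 95% interval -0.35 to 0.57).

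By library, CRFR1-KO 2 was the highest library for 6 of the 10 genes (Hspa1b, Hsph1, Dnajb1, Hspb1, Bag3 and Hsf1), against 23.2% of all tested genes. It was also the lowest for Hspa8 and Hsp90ab1. WT 2 was highest for Hspa1a, Hspa8 and Hsp90aa1, against 27.5% of all tested genes. It was lowest for Hsph1, Dnajb1, Hspb1 and Bag3, against 28.1% of all tested genes. WT 1 was highest for 0 of the 10, against 26.1% of all tested genes, but on library totals it was highest for Hsp90ab1 (125 CPM). The per-kb ratio of Hspa8 to Hsph1 was accordingly 41.0 and 23.2 in CRFR1-KO, against 44.6 and 67.6 in WT. That of Hspa8 to Dnajb1 was 39.8 and 29.4 in CRFR1-KO, against 44.9 and 65.6 in WT. For both ratios the CRFR1-KO libraries lay below the WT libraries without overlap, but CRFR1-KO 1 and WT 1 were close together. CRFR1-KO 2 was the lowest and WT 2 the highest. How often ratios of other genes separate in this way was not computed. The ratio of Hspa8 to Hsp90ab1 did overlap, at 1.09 and 1.02 in CRFR1-KO, against 1.07 and 1.42 in WT. A ratio within a library does not depend on scaling, but Hsph1 and Dnajb1 were taken for it after their values were seen.

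**Figure D3:**
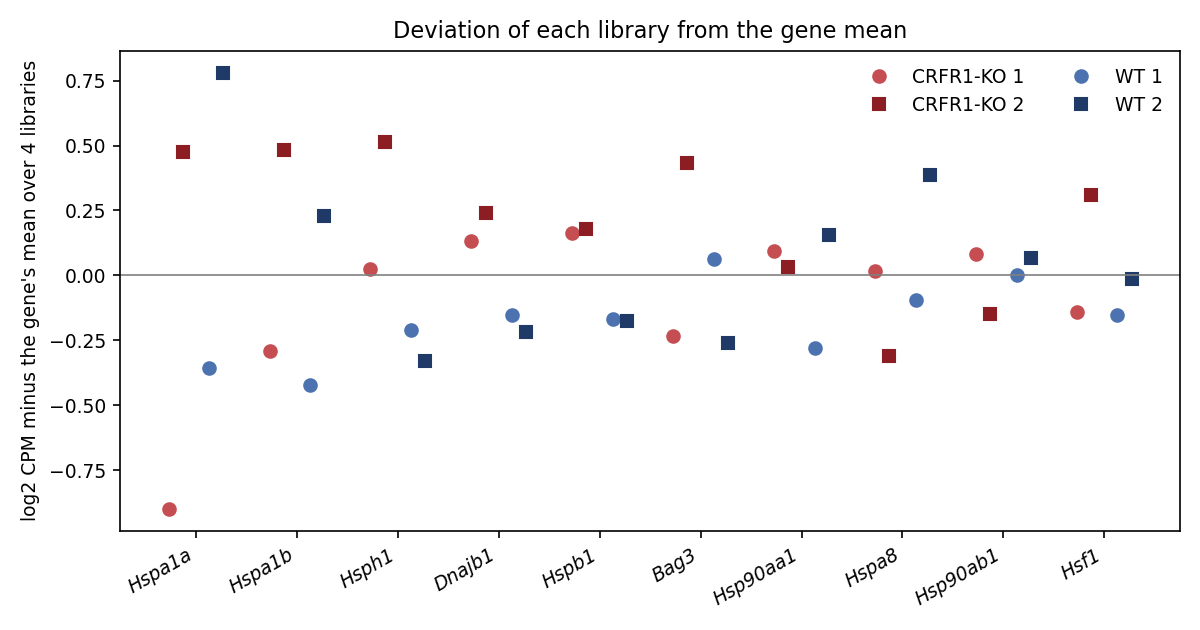
The log2 CPM of each heat shock gene in each library, minus the gene's mean over the 4 libraries, with circles for the first and squares for the second library of a genotype. CRFR1-KO 2 lies between 0.178 and 0.515 above the mean for Hspa1a, Hspa1b, Hsph1, Dnajb1, Hspb1 and Bag3, and at -0.312 for Hspa8.

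A mean pattern was taken over 6 inducible members, Hspa1a, Hspa1b, Hsph1, Dnajb1, Hspb1 and Bag3, without Hsp90aa1. It was -0.18 in CRFR1-KO 1, 0.39 in CRFR1-KO 2, -0.21 in WT 1 and 0.0045 in WT 2, as log2 CPM around each gene's mean. Its members were not alike in WT 2, where the low-count copies Hspa1a and Hspa1b stood at 0.781 and 0.228. Hsph1, Dnajb1, Hspb1 and Bag3 stood there at -0.328, -0.22, -0.174 and -0.259. The near-identical copies each counted as a member, and Hspa1a stood at -0.9 in CRFR1-KO 1. The mean, and the choice of genes closest to it, thus lean in part on these copies. Hsp90aa1 stood at 0.0328 in CRFR1-KO 2 and 0.155 in WT 2. Of 5736 other genes with a mean of at least 5 CPM, those closest to it by root mean square difference over the 4 libraries were Ddx23 (0.0396), Egfl7 (0.0426), B4galt3 (0.051) and Ncbp1 (0.0542), in log2 units. Ddx23 stood at 13.2 and 18.4 CPM in CRFR1-KO, against 13.1 and 14.9 CPM in WT. In all, 72 of the 5736 genes lay within 0.1.

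Partners of these chaperones were counted in lists of their own. Of 84 tested genes in 7 lists, without the endoplasmic reticulum and immediate early lists, 0 passed the edgeR adjustment, against 0.0264% of all tested genes. At an unadjusted p under 0.05 in edgeR there were 2, against 4.86% of all tested genes. Of the log2 fold changes of the 84 genes, 45 were above 0 and 39 below, with a median of 0.03. Of all tested genes 50.8% were below 0. The 2 genes, given as values, were Fkbp5 and Dnajc2. Fkbp5, a cochaperone of HSP90 in steroid receptor complexes that glucocorticoids induce, stood at 2.67 and 3.94 CPM in CRFR1-KO, against 4.004 and 11.5 CPM in WT (log2 fold change -1.23, SE 0.47). WT 2 stood apart from the other 3 libraries, and CRFR1-KO 2 and WT 1 nearly touched. Dnajc2, a J-domain protein at the ribosome, stood at 5.31 and 4.77 CPM in CRFR1-KO, against 3.58 and 3.41 CPM in WT (log2 fold change 0.53, SE 0.22). The genotypes did not overlap, and the edgeR adjusted p was 1 for both genes.

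Among the HSP90 cochaperones 12 of 19 were above 0 (median 0.05), with Cdc37l1 at -0.19 and Tomm34 at 0.19 on the log2 scale beside Fkbp5. The HSP70 cochaperones had 14 of 21 above 0 (median 0.06), with the J-domain gene Dnaja4 at 0.43 and Bag6 at 0.24. Of the HSP70 and HSP110 relatives 2 of 8 were above 0 (median -0.14). Among them Hspa12b, a distant relative found in endothelium, stood at 1.74 and 2.02 CPM in CRFR1-KO, against 0.871 and 1.28 CPM in WT (log2 fold change 0.81, SE 0.38). Hspa14 was at -0.33 and Hspa13 at -0.13. The other small heat shock proteins had 2 of 6 tested above 0 (median -0.24), with Hspb6 at -0.33, Hspb8 at -0.16 and Cryab, the lens and muscle chaperone alpha B-crystallin, at 0.28. Cryab stood at 20.8 and 18.2 CPM in CRFR1-KO, against 12.1 and 20.0 CPM in WT, with WT 1 lowest.

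The cytosolic chaperonin CCT and its partner prefoldin, which fold actin and tubulin, had 6 of 14 above 0 (median -0.02), with Cct6a at -0.29, Cct5 at -0.23 and Pfdn6 at 0.20. Mitochondrial chaperones had 5 of 10 above 0 (median -0.0047). Hspa9, the mitochondrial HSP70, was at -0.35, Hspd1, the mitochondrial HSP60, at -0.31 and the cochaperone Grpel2 at 0.21. The HSF family and its regulators had 4 of 6 tested above 0 (median 0.10), with the deacetylase gene Sirt1 at 0.37, Hsbp1 at 0.26 and Ep300 at -0.15. All these are log2 fold changes, and 0 genes of these lists passed in edgeR.

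The last pair of lists stood for other stress responses and likewise held 0 genes past the threshold. Chaperones and stress genes of the endoplasmic reticulum had 9 of 18 above 0 (median -0.04), with the J-domain gene Dnajb9 at 0.54, Sdf2l1 at -0.36 and Manf at -0.27. Immediate early genes had 4 of 18 tested above 0 (median -0.23), with Nr4a1 at -0.62, Junb at -0.90 and Klf6 at -0.35. Of the tested immediate early genes 77.8% were below 0, against 50.8% of all tested genes.

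**Figure D4:**
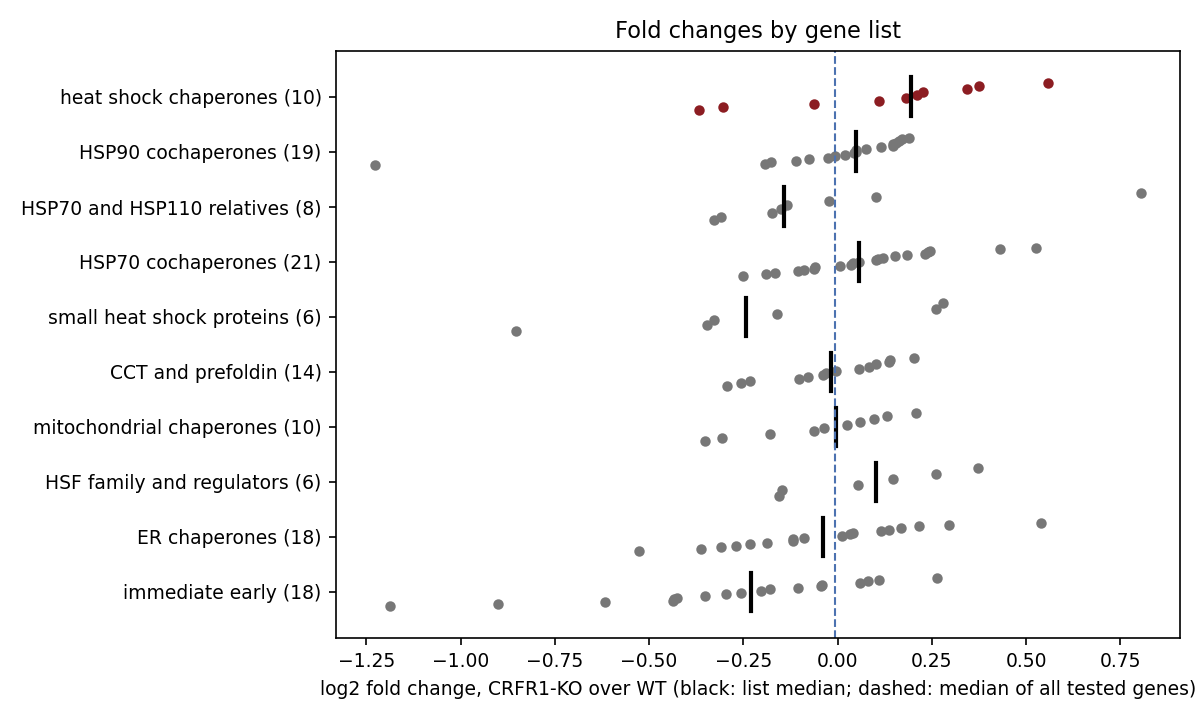
The log2 fold change of CRFR1-KO over WT for each tested gene (points) in the heat shock chaperones and 9 other lists, with the number tested in brackets, a black line at each list's median and a dashed line at the median of all tested genes. The list medians lie between -0.244 for the small heat shock proteins and 0.196 for the heat shock chaperones.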

How the data were processed

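Poly(A) RNA-seq of 4 libraries (2 CRFR1-KO, 2 WT) was analysed from the deposited table, which holds the authors' whole-number counts per Ensembl gene, without normalization. Libraries carried a dUTP-marked second strand, per the labels' protocols, and FastQC, DESeq2 and edgeR were used, per the submitters' processing notes. The aligner, counting program, strand setting, annotation and build were not given in the sources used here. Columns were tied to libraries by library name, and 55141 of 55401 identifiers had a symbol in GENCODE M21. No entry lacked a gene identifier.

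The test across all genes used edgeR 4.0.16 in R 4.3.3 (TMM scaling, filterByExpr, quasi-likelihood F test, two-sided, genotype as sole term), with Benjamini-Hochberg adjustment over 15131 genes at 0.05. SEs come from the F statistic and 95% intervals from the test's degrees of freedom. Levels are CPM on scaled library sizes. With 2 libraries against 2, an exact permutation test cannot go below p = 0.333, so none was used. The test was tested on simulated data. Alternatives covered scaling, filters, DESeq2 1.42.0, limma-voom (limma 3.58.1), robust estimation, a replicate block, each library left out, and summing Hspa1a and Hspa1b.

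Members and lists were chosen with earlier results of these data known. Named genes were the 10 members, the 3 of each related list with the smallest p, and the 4 genes most alike in pattern. CPM per kb uses the longest coding transcript in GENCODE M21 (GRCm38). Promoter sequences are from RefSeq (GRCm38.p6).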

Additional observations from a re-analysis of the deposited data

How the results depend on the processing

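In 15 alternatives, 0 heat shock members passed the adjusted threshold. Of 148 recomputed member fold changes 140 kept their direction and 8 reversed, all 8 on leaving out a library. Hspa8, Hsph1, Dnajb1 and Hspb1 kept their direction in every alternative run, with Hspb1 between 0.215 and 0.350 and Dnajb1 between 0.246 and 0.428 on the log2 scale. The smallest adjusted p of any member was 0.533.

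On leaving out a library, the log2 fold change of Hsph1 ranged from 0.2999 to 0.784, that of Hspa8 from -0.524 to -0.0389, Hspa1a from -1.20 to 0.304, Hspa1b from -0.218 to 0.572, Hsp90aa1 from -0.0913 to 0.347, Hsp90ab1 from -0.182 to 0.0593, Bag3 from -0.136 to 0.523 and Hsf1 from -0.0535 to 0.390. The sum of Hspa1a and Hspa1b ranged from -0.666 to 0.450, the members' median from 0.00289 to 0.370, and the number of members below 0 from 2 to 5. Each such fit leaves a group a lone library, assumed to vary like the other group.

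Over all genes, the count past the threshold was 4, against 57 with DESeq2, 0 with limma-voom and 0 to 69 on leaving out a library. With a replicate block it was 7, with 0 members. The shared numbers are not stated to mark pairs, and same-numbered libraries did not deviate together (r = -0.065 across 15131 genes, which are not independent replicates). The causes were not tested. Hspa1a and Hspa1b had the fewest counts of the members, with 14 to 47 per library, and Hspa1a differed by 1.37 log2 units within CRFR1-KO and 1.14 within WT.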
